A study of Drosophila melanogaster with 3 samples.

Results

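Promoters that carried only weak putzig summits were examined in whole Drosophila melanogaster embryos. They were chosen by pooled signal and position: the pooled peak list was ranked by signal, ranks 6523 to 13044 were taken, and a summit was kept when it lay within 250 bp of an annotated start site (TSS) of a protein-coding gene whose TSSs all lacked a reproducible summit within that distance. The rule found 1071 summits of the 6522 in that stretch of ranks, at 991 genes. These genes made up 7.11% of the 13945 protein-coding genes, and 12.4% of the 8006 without a reproducible summit at a start. Reproducible summits are the 6522 that passed the authors' irreproducible discovery rate (IDR) threshold across replicates, and they are the first 6522 ranks of the pooled list. A summit is called weaker here when it ranks below them. A gene is said to have neither kind when no summit of ranks up to 13044 lies at any of its starts; 872 of these 7015 genes (12.4%) have one in later ranks of the list.

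The study holds 1 group of 3 biological replicates: embryos of both sexes, 0 to 24 h old, from a transgenic line with GFP fused to the C terminus of putzig (pzg), assayed by chromatin immunoprecipitation and sequencing (ChIP-seq). The free text of the libraries names them input controls, against their assay and antibody fields, and they were treated as putzig ChIP-seq. There is no other genotype or condition, so no contrast between treatments exists. Read depth is unknown, since peak lists carry none. The embryos were taken whole and over a day of development, so that occupancy in few cells and weak occupancy in many cannot be told apart. Background signal cannot be told apart from either at these summits, since the pooled list includes background entries.

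Putzig, a protein with zinc fingers, works in chromatin complexes that hold Dref, a DNA-binding factor, and Trf2, a relative of the TATA-binding protein, and also with the nucleosome remodeller NURF. Dref binds the DNA replication-related element (DRE), which, with the element called Motif 1, marks promoters of broadly expressed fly genes. Developmentally regulated fly promoters are known for a different make-up, with an initiator (Inr) at the start itself and GAGA elements upstream, the sites of the GAGA factor encoded by Trl.

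Sequences from these promoters show both kinds of element. Each runs 5′ to 3′ on the strand of the gene, from 100 bp before the summit to 100 bp after it or to 20 bases past the start, whichever comes first, and is taken from the RefSeq genome in dm6 coordinates. Capitals mark a DRE (TATCGATA), Motif 1 (GGTCACAC) or a GAGA element (GAGAGAG) on either strand, and TCAGT, the initiator letters, where they lie on the strand of the gene within 7 bp of the start. The first 3 show the rare promoters with a DRE or Motif 1, and the next 2 those with a GAGA element. The last 2 show an initiator at the start and were chosen after the initiator's frequency was seen.
mst (chrX:21388858-21388997, plus strand): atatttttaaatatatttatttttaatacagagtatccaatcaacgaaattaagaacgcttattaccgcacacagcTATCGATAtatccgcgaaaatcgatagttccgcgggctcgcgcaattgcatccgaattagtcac
CG10132 (chr2L:19518705-19518844, plus strand): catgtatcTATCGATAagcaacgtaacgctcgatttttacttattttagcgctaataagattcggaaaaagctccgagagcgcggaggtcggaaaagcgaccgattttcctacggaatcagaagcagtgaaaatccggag
rho-4 (chrX:11599693-11599858, plus strand): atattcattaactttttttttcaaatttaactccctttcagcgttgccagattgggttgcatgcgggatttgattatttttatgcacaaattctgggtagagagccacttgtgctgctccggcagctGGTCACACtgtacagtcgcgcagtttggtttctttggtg
CG42268 (chr3L:9751714-9751914, minus strand): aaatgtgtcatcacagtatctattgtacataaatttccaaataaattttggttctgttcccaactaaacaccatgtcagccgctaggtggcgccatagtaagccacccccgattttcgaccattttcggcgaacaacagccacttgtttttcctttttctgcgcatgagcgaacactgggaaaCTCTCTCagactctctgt
sdt (chrX:8193010-8193210, plus strand): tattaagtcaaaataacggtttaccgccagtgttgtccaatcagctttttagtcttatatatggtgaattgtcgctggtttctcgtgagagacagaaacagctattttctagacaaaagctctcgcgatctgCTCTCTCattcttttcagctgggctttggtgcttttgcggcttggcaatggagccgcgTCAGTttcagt
CG3703 (chrX:945753-945935, minus strand): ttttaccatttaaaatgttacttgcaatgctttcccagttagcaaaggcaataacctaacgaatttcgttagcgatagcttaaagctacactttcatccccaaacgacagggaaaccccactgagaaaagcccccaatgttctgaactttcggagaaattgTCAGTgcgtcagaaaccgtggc
Sur (chr2L:10199097-10199250, minus strand): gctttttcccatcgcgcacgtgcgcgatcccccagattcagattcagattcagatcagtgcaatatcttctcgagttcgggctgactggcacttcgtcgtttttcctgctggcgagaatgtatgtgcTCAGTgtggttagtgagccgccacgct

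The promoters of mst and CG10132 had their summits 19 bp upstream of the start, and their DREs began 43 and 111 bases before it. The rho-4 promoter, of a rhomboid-family gene, carried Motif 1 beginning 18 bases before the start. The promoter of sdt, which encodes the apical polarity protein Stardust, carried a GAGA element and initiator letters together. At Sur, the sulfonylurea receptor gene, the initiator letters began 6 bases before the annotated start.

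The selected summits filled the range of signal that the rule left to them. The pooled signal, whose scale the authors do not name, was 235.35 at the last reproducible rank and 235.34 at the first rank below it, and it was 79.38 both at rank 13044 and at the next rank. The selected summits ran from 235.2 at Indy, a citrate transporter gene (rank 6524), to 79.4 at CG16727 (rank 13029). Their median of 121 compares with 1263 at the 5406 reproducible summits at coding starts, and the strongest pooled summit reached 15079. The authors' pooled q value ran from 7.59e-05 to 0.163 over the selected summits, and 728 of them (68%) had a q value of 0.05 or less. At the edge of the window the farthest selected summit lay 249 bp from its start, and the nearest one outside lay 251 bp away. There were 118 selected summits in the outermost 50 bp of the window and 75 in the next 50 bp beyond it.

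Promoter location thinned out steadily with rank, and no step stood at the threshold. In ranks 1 to 652, 97.4% of summits lay at a coding start, against 52.7% in ranks 5870 to 6522, 44.3% in ranks 6523 to 7174 and 13.3% in ranks 12392 to 13044. Over the stretch as a whole 1756 summits (26.9%) lay at a coding start, and 685 of these belonged only to genes that also had a reproducible summit. The selected summits took 23.2% of the first bin of the stretch and 9.04% of its last.

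**Figure D1:**
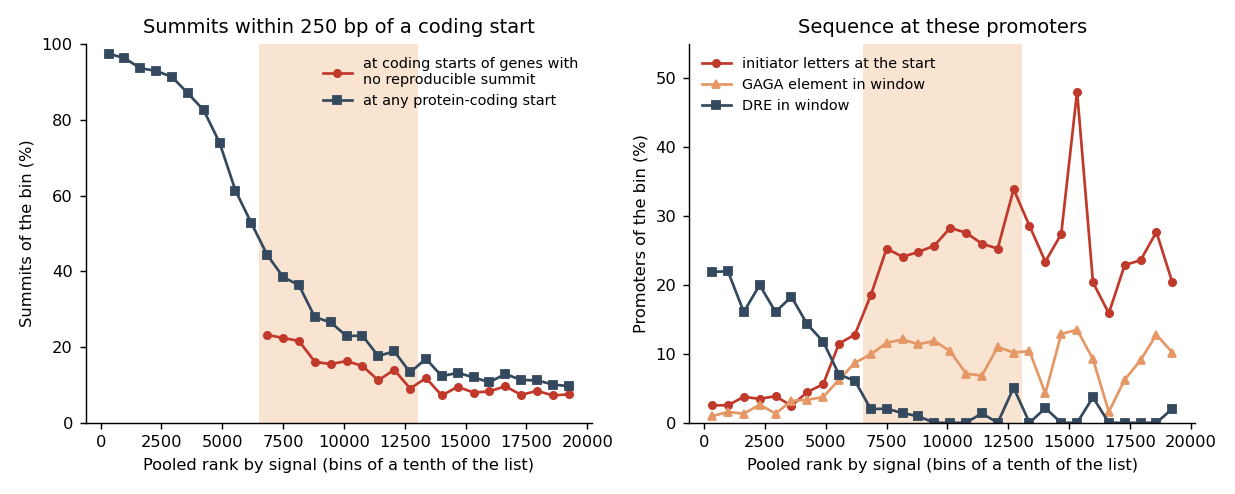
Left, share of pooled summits (percent, y axis) within 250 bp of a protein-coding start by pooled rank (x axis), for genes with no reproducible summit (circles) and for any coding gene (squares). Right, share of the promoters of each bin (y axis) with initiator letters at the start, a GAGA element or a DRE in the 201 bp window; bins before the shading hold all coding starts and later bins those of genes with no reproducible summit. Shading marks ranks 6523 to 13044: the share at any coding start falls from 44.3% to 13.3% across it, and initiator letters are found at 18.5% to 33.9% of its promoters.

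Most of the selected summits stood apart from reproducible ones. The median distance to the nearest reproducible summit was 4673 bp, 180 (16.8%) lay within 1000 bp of one and 24 (2.24%) lay inside a reproducible interval. The share within 1000 bp was 16.7% for the 4766 summits of the stretch away from coding starts and 66.3% for the 685 at genes with a reproducible summit. The definitions of the sets enter into the last comparison. Selected genes have no reproducible summit within 250 bp of any start, whereas the genes of the 685 have one. The farthest, at the myosin gene Myo81F on chromosome arm 3R, was 3056168 bp from any reproducible summit. A second start was touched by few: 1044 summits served 1 gene, 26 served 2 and 1 served more, and 19 also lay within 250 bp of a TSS of a gene with a reproducible summit. Of the genes, 897 had 1 selected summit and 82 had 2, and Hk, a potassium channel β subunit gene, and pes had 4 each. The interval around the summit was 424 bp wide at 1005 of the selected summits (93.8%), a width found at 718 (11%) of the reproducible ones.

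The summits were spread more widely around the start than reproducible summits as a whole, but about as widely as the weakest of those. Upstream of the start lay 638 of 1071 (59.6%, Wilson 95% interval 56.6 to 62.5%), against 4317 of 5406 reproducible summits at coding starts (79.9%, 78.8 to 80.9%). The medians were close, at 30 bp and 33 bp upstream, but the middle 50% of the selected summits ran from 114 bp upstream to 49 bp downstream, while that of reproducible summits ran from 67 to 7 bp upstream. Within 50 bp of the start lay 31.1% of the selected summits and 59.5% of the reproducible ones. The 344 reproducible summits at coding starts in ranks 5870 to 6522 lay upstream in 60.5% (55.2 to 65.5%) and within 50 bp in 35.2% (30.3 to 40.4%), near the shares of the selected summits; this set was added after seeing the data. By annotation, 37.1% of the selected summits fell in an untranslated exon, 16.7% in an intron and 7.19% in a coding exon, against 25.5%, 10.3% and 1.33% of the reproducible ones. The start was the 5′ end of the gene for 73.9% of the selected and 84.1% of the reproducible summits, so that internal starts were more frequent among the selected. Intervals here and below cover counting error only.

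**Figure D2:**
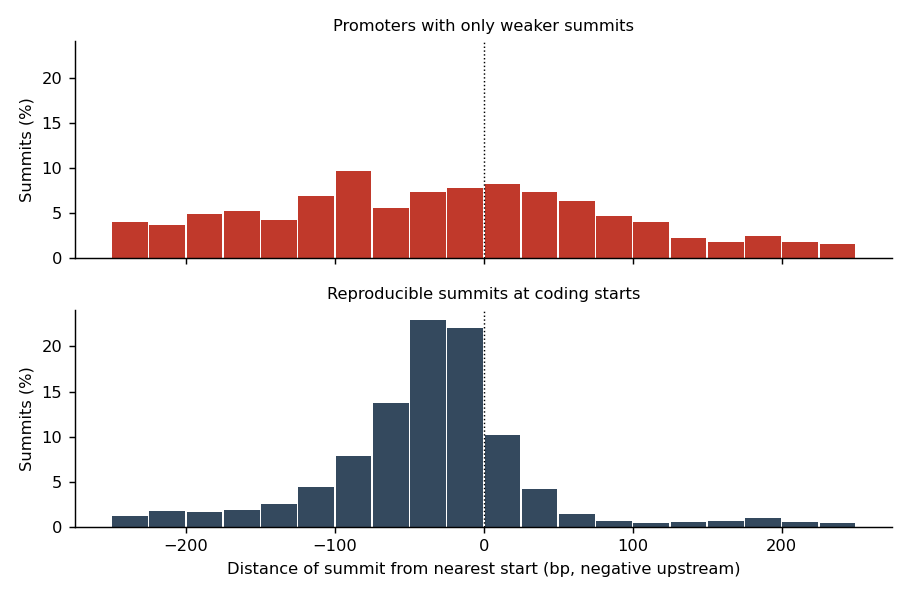
Share of summits (percent, y axis) by distance from the nearest qualifying start in bins of 25 bp (x axis, negative upstream), for the 1071 selected summits (top) and the 5406 reproducible summits at coding starts (bottom). The reproducible summits gather just upstream of the start, 59.5% of them within 50 bp of it, whereas 31.1% of the selected summits lie there.

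Paired, back-to-back promoters were scarce, which the rule itself favours. A reproducible summit within 250 bp of both starts of such a pair bars both genes from selection. How much of the gap this makes was not tested. A start of another coding gene on the opposite strand lay upstream within 500 bp at 82 of the selected summits (7.66%) and at 2023 of the reproducible ones (37.4%). In 51 of the 82 the opposite gene had a reproducible summit of its own, and in 13 it was itself among the selected genes. Counted over genes at their 5′ ends, 10.3% of the selected genes had such a partner, against 48% of genes with a reproducible summit and 10.4% of the 7015 coding genes with neither.

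The DRE and Motif 1, which mark broadly expressed promoters, were nearly missing from the selected summits, and the GAGA element was more frequent than at reproducible coding starts. A DRE was found in 13 of 1071 windows reaching 100 bp to each side of the summit (1.21%, 0.711 to 2.07%), against 879 of 5406 windows at reproducible coding starts (16.3%). Motif 1 was found in 9 (0.84%) against 801 (14.8%), and the CGATA core bound by BEAF-32, which overlaps the DRE, in 25.4% against 55.3%. A GAGA element was found in 112 windows (10.5%, 8.76 to 12.4%) against 2.9% at reproducible coding starts. Among windows centred on the 5′ ends of all coding genes the shares were 7.84% for the DRE, 6.76% for Motif 1, 39.4% for the core and 3.69% for the GAGA element. The letters TATAAAA stood in 7.66% of selected and 11.9% of reproducible windows, and their reversed sequence, searched as a control for base composition, in 11.6% and 22.5%. The reversed core stood in 25.2% and 31.9%, the reversed DRE in 0.187% and 0.647%, and reversed Motif 1 in 0.84% and 3.64%. The median GC content of the windows was 48.3% against 39.3%. Its part in the motif shares was not tested.

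**Figure D3:**
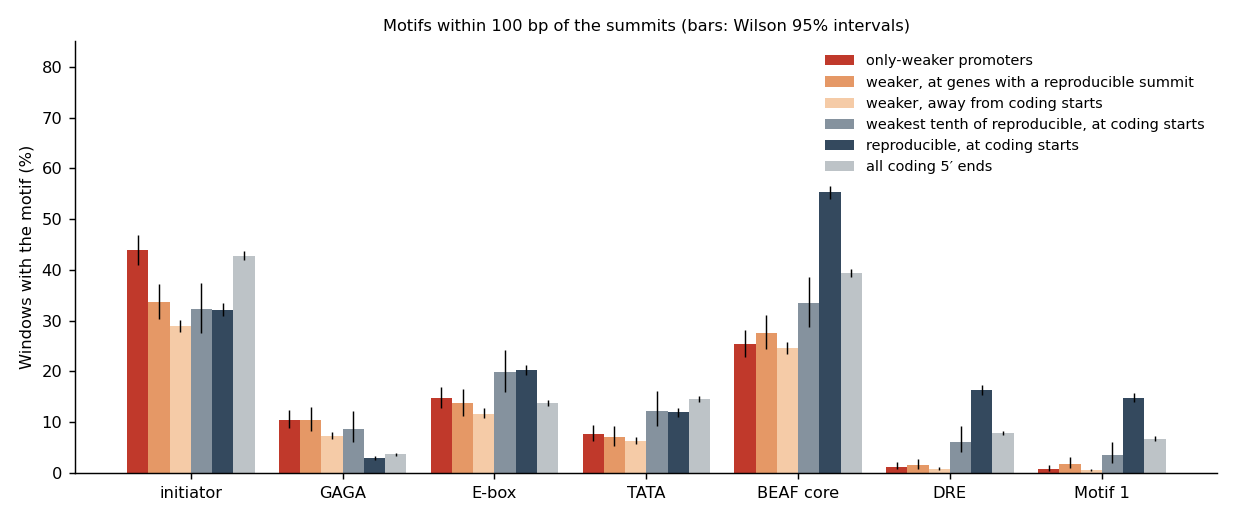
Share of 201 bp windows (percent, y axis) that hold each motif on either strand, for the 1071 selected summits, other weaker summits, reproducible summits at coding starts and the 5′ ends of all coding genes; bars show Wilson 95% intervals. The DRE is in 1.21% of selected windows and 16.3% of reproducible windows, and the GAGA element in 10.5% and 2.9%.

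The scarcity of the DRE and the frequency of GAGA elements were shared with other weaker summits. The 685 weaker summits at genes with a reproducible summit held a DRE in 1.46% and a GAGA element in 10.4% of windows, and the 4766 away from coding starts held them in 0.86% and 7.32%. Reproducible promoters of the lowest signal, in ranks 5870 to 6522, lay between: 21 of 344 (6.1%) held a DRE and 30 (8.72%) a GAGA element. Within the stretch the DRE share by bin ran from none to 5.08%, with 3 of 151 windows in the first bin (1.99%) and 3 of 59 in the last (5.08%).

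Initiator letters at the start were more frequent at the selected genes than at genes with a reproducible summit or at those with neither as a whole. TCAGT stood on the strand of the gene within 7 bp of the start at 245 of the 991 selected genes (24.7%), against 254 of 5939 genes with a reproducible summit (4.28%) and 923 of 7015 with neither (13.2%). The trait is not confined to the selected ranks: among the 435 further genes that the rule finds in the next equally long stretch, which are counted here among those with neither, the share, added after seeing the data, was 25.3% (21.4 to 29.6%). Only the 5′ end of each gene was read for the genes with neither; read at the 5′ end, the share of the selected genes was 21.4% and that of genes with a reproducible summit 4.51%. The share changed with rank among reproducible promoters as well, from 2.52% in ranks 1 to 652 to 12.8% in ranks 5870 to 6522. A TATAAAA from 40 to 16 bp before the start was found at 39 selected genes (3.94%), against 0.589% of genes with a reproducible summit and 7.01% of genes with neither. Over the 300 bp promoter, from 250 bp before to 50 bp after the start, a GAGA element was found at 17.7% of the selected genes, 2.66% of genes with a reproducible summit and 7.17% of genes with neither, while the DRE was found at 2.12%, 19.9% and 1.95%.

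The same contrast was seen in each replicate's own list, where the rule was applied anew: promoters with only weaker summits (that replicate's ranks 6523 to 13044) were set against promoters at its first 6522 ranks. The DRE share at promoters with only weaker summits was 1.21%, 1.74% and 2.68% in replicates 1, 2 and 3, against 16%, 16.4% and 16.4% at the strongest. Every replicate showed the gap, and the ranges did not overlap. The replicates' reads are part of the pooled list, so that this is no independent check of the gap seen there. The mean difference was -14.4 percentage points ± 0.568 (SD, n = 3), with p = 0.25 in an exact two-sided sign-flip permutation test over replicates, the smallest p that 3 replicates allow. The GAGA element share was 9.55%, 11.5% and 9.26% at promoters with only weaker summits, against 2.55%, 2.72% and 3.2% at the strongest. Initiator letters at the start were found at 23.7%, 25.2% and 22.7%, against 4.48%, 4.46% and 5.03%. Both measures were higher in 3 of 3 replicates (exact p = 0.25 each).

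Position gave the same direction in every replicate. Upstream of the start lay 59.2%, 63.7% and 49.6% of the summits at promoters with only weaker summits, against 79.1%, 78.8% and 77.2% at the strongest promoters. Replicate 3 was the lowest of the 3. A divergent partner was found at 6.26%, 7.62% and 15.8% of them, against 38.1%, 38.2% and 36.9%. In each list the rule favours this gap, since a strong summit between close opposite starts bars both genes. Of 15 measures compared in this way, 13 had the same sign in every replicate, each with an exact p of 0.25 and a Benjamini-Hochberg adjusted p of 0.288. The other 2, the insulator motif AGGTGGCG and Motif 7 (CAGCGCTA), had mixed signs.

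Counts of all 8-letter words led with the same elements. The letters that fell shortest among selected windows relative to reproducible coding starts were TATCGATA and GGTCACAC, followed by ATCGATAG at 1.49% against 15%. Those in greatest excess were AGAGAGAG (5.88% against 1.31%), GCAGCAGC (5.98% against 1.61%) and CACACACA (7% against 3.02%), each of them also a simple repeat.

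Among themselves the selected promoters differed by element, by rank and by neighbourhood. The 112 with a GAGA element lay upstream of the start in 78.6% (70.1 to 85.2%), against 57.4% of the other 959, and the genes at their starts were longer, with a median of 11115 bp against 5355 bp. Initiator letters stood at the start in 32.1% of the 112 and in 24.4% of the others, with overlapping intervals. The 180 within 1000 bp of a reproducible summit held initiator letters at the start in 10% (6.42 to 15.3%) and a GAGA element in 5.56%, against 28.3% (25.4 to 31.3%) and 11.4% of the 891 farther away. A divergent partner was found at 27.2% of the near and 3.7% of the far summits. Those of ranks up to 9783 lay upstream in 64.1% and those of later ranks in 52.7%.

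The 13 promoters with a DRE were a small and mixed set. They included U2af38 (splicing factor subunit, rank 7151), Cfp1 (a CXXC-domain subunit of the Set1 histone methyltransferase complex, rank 7505) and Hem (of the SCAR actin-regulatory complex, rank 8806). At U2af38 the summit lay inside peaks of rank 5086 in replicate 2 and 3956 in replicate 3 and in no peak of replicate 1. At Hem it lay in a peak of replicate 3 alone, at rank 4986. Of the 13, 4 lay within 1000 bp of a reproducible summit, U2af38 (366 bp) and Hem (500 bp) among them, and 5 at divergent starts. The genes opposite U2af38 and Hem, Stip1 and IleRS, have a reproducible summit. Whether the replicate peaks at U2af38 and Hem belong to these neighbours was not tested.

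The selected genes were longer than the others and had more starts. Their median length was 5173 bp, against 2765 bp for genes with a reproducible summit and 1621 bp for genes with neither, and they had 1.78 annotated TSSs each on average, against 1.56 and 1.22, although 536 of the 991 (54.1%) had a single one. More starts give a gene more chances to meet the rule, and the part of gene structure in the counts below was not tested. Genes nested inside another coding gene made up 7.57% of the selected, 3.08% of those with a reproducible summit and 17.7% of those with neither. By chromosome arm the selected share of coding genes ran from 6.49% on 3R to 7.89% on 2R, and on the small chromosome 4 it was 3 of 80 (3.75%).

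Gene groups filled the class unevenly, against the 7.11% of all coding genes. The 71 developmental regulators listed gave 11 (15.5%, Wilson 8.88 to 25.7%), the 169 signalling genes 22 (13%, 8.76 to 18.9%), the 680 tissue-restricted genes 39 (5.74%, 4.22 to 7.74%) and the 413 housekeeping genes 6 (1.45%, 0.667 to 3.13%). The lists also differed in the genes left to choose from, since 84.7% of the housekeeping genes had a reproducible summit. Of the genes without one, the selected share was 9.52% of 63 housekeeping, 16.4% of 67 developmental, 6.17% of 632 tissue-restricted and 29.3% of 75 signalling genes, against 12.4% over all genes. The developmental share rests on the window: with 100 bp in place of 250 bp it was 4 of 71 (5.63%), near the 5.22% of all coding genes under that window, while the signalling share was 10.1% and the housekeeping share 1.21%. With ranks up to 9783 the developmental share was 8.45%, against 4.43% of all coding genes. No test was run on lists, which were chosen with results of these data known.

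**Figure D4:**
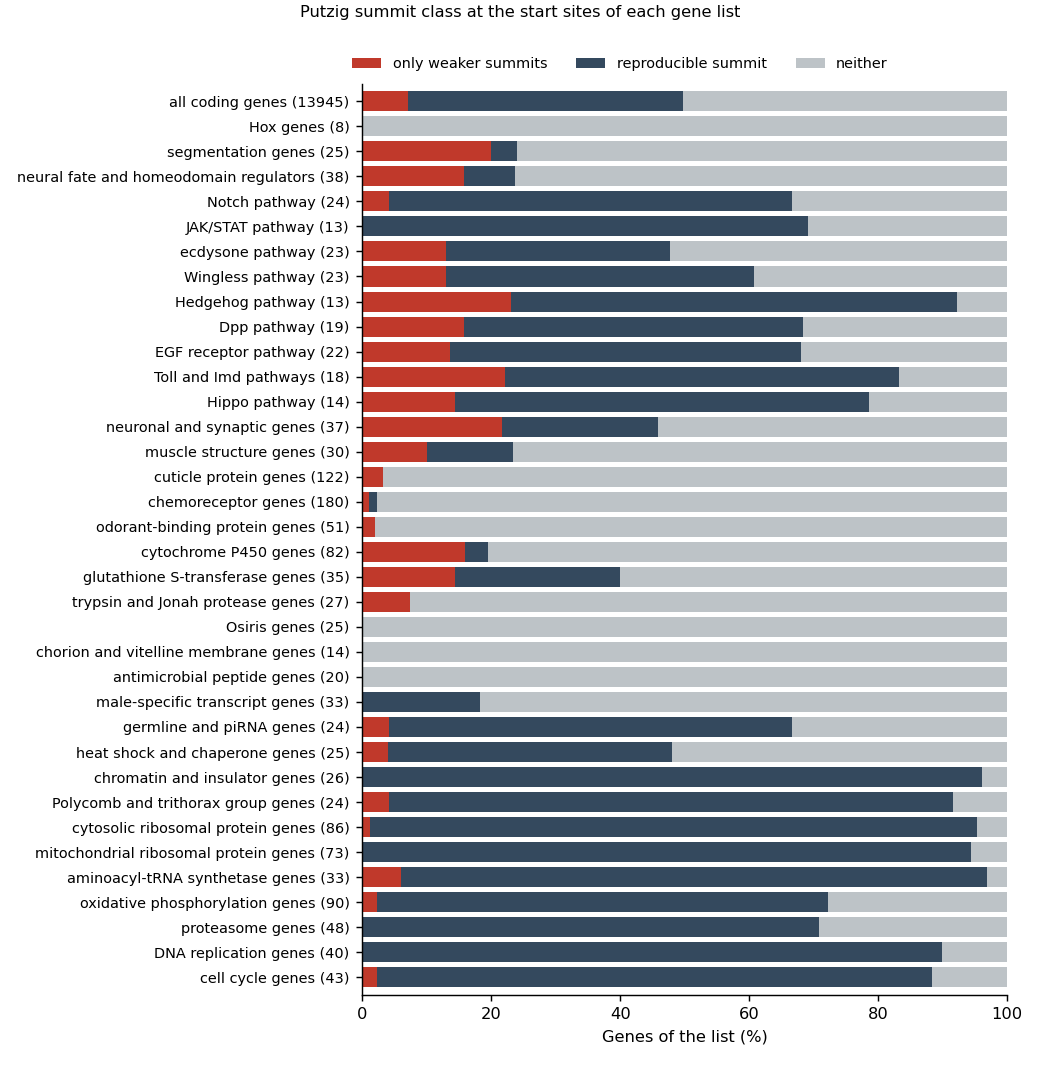
Share of the genes of each list (percent, x axis) with only weaker putzig summits, with a reproducible summit or with neither, with the number of genes in brackets. Of the listed housekeeping genes 350 of 413 have a reproducible summit and 6 only weaker ones, while 56 of 71 developmental regulators have neither and 11 only weaker ones.

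Among ligands, hh, the Hedgehog ligand, had its summit 160 bp upstream of the start (rank 11714, signal 87.8), inside peaks of rank 8497 in replicate 1 and 13032 in replicate 2 and in none of replicate 3. Wnt5 was selected at rank 7618, and so were spz, the Toll ligand (11099), daw, an activin-like ligand (10361), and grk, a TGFα-like ligand (12810). Receptors and co-receptors included fz2, a Wingless receptor, with its summit 55 bp upstream (rank 7071), wit, a type II BMP receptor (9453), and the glypican dally 1 bp downstream of its start (11029). Inside the cell, the selected genes included the ERK gene rl (7530), the adaptor imd (8895) and the kinase-associated Tab2 (7776).

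The transcription factors that end these pathways were represented too. Cubitus interruptus (ci), the Hedgehog effector on chromosome 4, had its summit 126 bp upstream of an internal start (rank 6569, signal 231.1), with ranks of 6418 and 7164 in replicates 1 and 2 and no peak in replicate 3. With dally and hh it made 3 selected of 13 Hedgehog pathway genes (23.1%, against 7.11% of all coding genes), while 9 had a reproducible summit and 1 neither. With a window of 100 bp 1 of the 13 was selected (7.69%, against 5.22%). Scalloped (sd), the DNA-binding partner of Yorkie, had its summit 9 bp downstream of an internal start at ranks 6891, 8325 and 6045 in replicates 1, 2 and 3. The NF-κB gene Dif (rank 7044) and the ETS repressor aop (8862) were also selected. Antagonists were sog (10805) and nkd (8425), which restrain Dpp and Wingless signalling.

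By pathway, 4 of 18 Toll and Imd genes, 3 of 19 Dpp, 3 of 22 EGF receptor, 3 of 23 Wingless, 2 of 14 Hippo and 1 of 24 Notch pathway genes were selected. The Wilson interval for Toll and Imd, 9 to 45.2%, lay above the 7.11% of all coding genes, and the other intervals took that share in. With 100 bp or 500 bp windows, 2 Toll and Imd genes (11.1%, 3.1 to 32.8%) and 2 Notch genes (8.33%) were selected. Over all coding genes the shares were 5.22% with 100 bp and 7.8% with 500 bp, both inside that Toll and Imd interval. Of the Dpp genes 1 was selected with 100 bp (5.26%) and 4 with 500 bp (21.1%). The Notch target E(spl)mbeta-HLH stood near the end of the stretch (rank 12295). No gene of 13 in the JAK/STAT list was selected, which allows a share of up to 23.1%, but 9 of them had a reproducible summit, so that only 4 could be selected.

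The ecdysone pathway gave 3 of 23 genes (13%, 4.54 to 32.1%), an interval that takes in the 7.11% of all coding genes. EcR, the ecdysone receptor, was the strongest. Its intronic summit stood 17 bp before an internal start (chromosome arm 2R, dm6 position 6131939, rank 8151, signal 144.4, q = 0.00472), inside peaks of rank 8140 in replicate 1 and 8670 in replicate 2. Replicate 3 had no peak there. The other 2 were Kr-h1, a zinc finger factor of the hormone response (rank 10669), and the early ETS gene Eip74EF (10774), both with summits downstream of the start. Of other regulators looked up by name, usp, the partner of EcR, had a reproducible summit, as did CTCF, Jra, Trl, Hsf and hop, whereas br, wg, dpp and su(Hw) had no summit of ranks up to 13044 at a start. In later ranks wg and dpp had one.

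Developmental regulators came mainly from the segmentation and homeodomain lists, with 20% and 15.8% selected, against 7.11% of all coding genes. With a window of 100 bp the shares were 8% and 5.26%, against 5.22%. Of 25 segmentation genes 5 were selected (2 with a window of 100 bp), namely cad (rank 7389), the pair-rule genes hry (8034) and slp1 (10738), the head gap gene btd (9162) and en (11471), while 1 had a reproducible summit. The caudal summit lay 137 bp upstream of the start, with ranks of 9661, 8005 and 5738 in replicates 1, 2 and 3. Of 38 neural fate and homeodomain regulators 6 were selected (2 with a window of 100 bp): the limb gene Dll (6638), eyg (7352), the Islet gene tup (9002), Dr (11868), pnr (12769) and the proneural gene ato (12084). The Dll summit lay 99 bp upstream of its start, with ranks of 5879, 7486 and 10908. GAGA elements were in the windows of eyg, btd, en, Dr and pnr and in none of those of cad, hry, slp1, Dll and tup. For ato no value is given here. Over all selected windows the share was 10.5%. None of 8 Hox genes was selected, which allows a share of up to 37.5%, and none had a reproducible summit.

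Nerve cell genes were a further source, with 8 of 37 selected (21.6%, 11.4 to 37.2%, against 7.11% of all coding genes) and 9 with a reproducible summit. With a window of 100 bp 10.8% were selected, against 5.22% of all coding genes, and with 500 bp 29.7%, against 7.8%. They were the acetylcholine receptor subunit gene nAChRbeta1 (rank 6648), the synaptic vesicle calcium sensor Syt1 (6988), the microtubule-associated futsch (7465), the potassium channels Shal (7595), Sh and Shab, the neuroligin Nlg2 (8295) and the adhesion molecule Dscam1 (8464). At nAChRbeta1 the summit lay 209 bp upstream, with ranks of 7169, 7675 and 6295 in replicates 1, 2 and 3. Syt1 was similar, 192 bp upstream with ranks of 7170, 7324 and 5798. In muscle lists 3 of 30 were selected (10%, 3.46 to 25.6%, which takes in the 7.11%), TpnC73F (rank 10554), Msp300 (12046) and Mlc2 (12305).

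Detoxification genes were among the tissue-restricted lists with larger shares. Of 82 cytochrome P450 genes 13 were selected (15.9%, 9.51 to 25.3%) and 3 had a reproducible summit, and of 35 glutathione S-transferase genes 5 were selected (14.3%, 6.26 to 29.4%, an interval that takes in the 7.11% of all coding genes) and 9 had one. With a window of 100 bp the shares were 11% and 2.86%, the first above and the second below the 5.22% of all coding genes. Cyp12c1 had its summit 38 bp downstream of the start in a coding exon (rank 6909) and Cyp12b2 26 bp upstream (rank 7136). GstE1 and GstE10 shared 1 summit (rank 8423), so that the count of 5 rests on fewer summits. Members of these families lie in clusters of related copies, and whether mapping split or lost reads there was not tested. Cuticle protein genes (4 of 122), chemoreceptors (2 of 180) and odorant-binding proteins (1 of 51) were rarely selected. None of 25 Osiris, 20 antimicrobial peptide, 14 chorion and vitelline membrane or 33 male-specific transcript genes was, which allows shares of up to 12%, 15%, 21.4% and 9.09%.

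The few housekeeping genes selected were mostly copies or internal starts. RpS10a, COX7AL2 and ATPsynepsilonL are paralogues of ribosomal or respiratory chain genes by name, and dap encodes an inhibitor of cyclin-dependent kinases rather than a driver of the cycle. The ValRS summit lay 127 bp downstream of an internal start in a coding exon and 719 bp from a reproducible summit, and the GluRS-m summit lay 195 bp downstream of the start, also in a coding exon. No mitochondrial ribosomal protein, proteasome or DNA replication gene was selected, which allows shares of up to 4.11%, 6.25% and 7.5% of all genes listed. Few could be, since only 4 of 73, 14 of 48 and 4 of 40 lacked a reproducible summit. These counts are too small to show avoidance of such genes. Of 26 chromatin and insulator genes none was selected (up to 11.5%), but 25 had a reproducible summit, so that only 1 could be. Of 24 Polycomb and trithorax group genes 1 was selected, Su(z)2.

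Support in the replicate lists was slight at the top and broad below it. The 6522 strongest peaks of replicate 1 held 68 selected summits (6.35%, against 6.15% of all summits of the stretch), those of replicate 2 held 57 (5.32%, against 6.65%) and those of replicate 3 held 123 (11.5%, against 9.03%). These shares were near those of the whole stretch. Such a peak was found in no replicate for 867 selected summits, in 1 replicate for 166, in 2 for 32 and in all 3 for 6. These are 81%, 15.5%, 2.99% and 0.56% of them, against 83%, 12.8%, 3.62% and 0.583% of all summits of the stretch. The replicates' reads are part of the pooled list, so that this support is a description and no independent check.

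With peaks of the first 13044 ranks counted, 298 selected summits (27.8%) lay inside a peak of every replicate, against 20.4% of all summits of the stretch. With peaks of any rank it was 630 (58.8%) against 53.3%, and 1 selected summit lay in no replicate's peaks. Replicate 3 held the fewest: 336 selected summits (31.4%) lay in none of its peaks, against 94 (8.78%) for replicate 1 and 52 (4.86%) for replicate 2. Over all summits of the stretch the shares without a peak were 33.8% in replicate 3, 9.35% in replicate 1 and 8.72% in replicate 2. The median rank where a peak was found was 9278, 9228 and 9570 in replicates 1, 2 and 3. Over selected summits found in both lists, ranks went together best between replicates 1 and 2 (Spearman's rho 0.468, n = 931), and less between 1 and 3 (0.187, n = 668) and 2 and 3 (0.268, n = 692). These points share the pooled list they were drawn from.

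**Figure D5:**
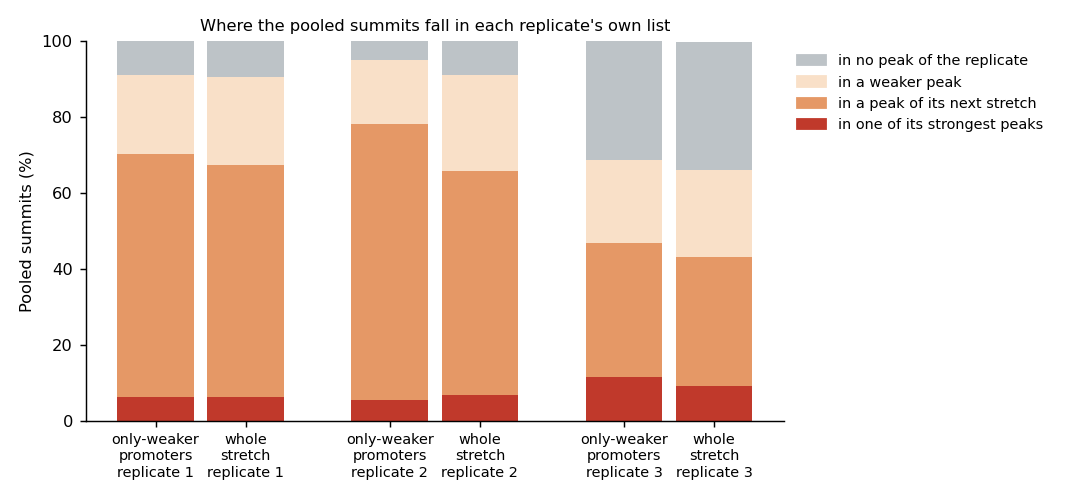
Share of pooled summits (percent, y axis) that lie inside a peak of the replicate's first 6522 ranks, of its next 6522, of a later rank or in none, for the selected promoters (left bar of each pair) and all summits of ranks 6523 to 13044 (right bar). The strongest peaks hold 6.35%, 5.32% and 11.5% of the selected summits in replicates 1, 2 and 3, and replicate 3 has no peak at 31.4%.

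The 6 summits inside a strongest peak of every replicate, no larger a share than over the whole stretch, were those of elg1, mRRF1, Noa36, Agpat1, CstF64 and tweek, and 5 of them lay within 1000 bp of a reproducible summit. CstF64, which encodes a subunit of the cleavage stimulation factor, had the highest ranks of the 6 in replicates 1 and 2: its summit (signal 192.9, rank 7059) lay 254 bp from a reproducible summit and inside peaks of rank 1172, 1100 and 5637 in replicates 1, 2 and 3. Noa36 had ranks of 5582, 5935 and 4028 with a reproducible summit 463 bp away. The exception was mRRF1, of a mitochondrial ribosome recycling factor, with ranks of 6343, 6090 and 6298 and 2702 bp to the nearest reproducible summit. Of the 38 in a strongest peak of at least 2 replicates, 32 lay within 1000 bp of a reproducible summit, against 16.8% of all selected summits.

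Applied to each replicate alone, the rule chose 830, 1074 and 807 genes in replicates 1, 2 and 3 (904 ± 148, SD, n = 3). Of the 991 selected genes 627 (63.3%), 723 (73%) and 399 (40.3%) were among them, which is 75.5%, 67.3% and 49.4% of each replicate's own choice. All 3 replicates chose 225 genes in common, and 217 of these were in the pooled selection, 21.9% of it. At 55, 49 and 140 of the selected genes the replicate had a summit of its first 6522 ranks at a start, and at 309, 219 and 452 it had none in either stretch.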

How the data were processed

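The 3 replicates, assigned by their antibody field and numbered as in the library descriptions, were putzig-eGFP ChIP-seq of whole embryos, with chromatin sonicated to 200 to 800 bp per the labels. Per the deposited notes, each replicate's peaks came from its own alignment and 1 shared control alignment, in dm6. The authors deposited 5 peak lists: 1 per replicate and 1 pooled, with 30000 entries each including background, and the reproducible list. Neither the aligner nor the peak caller is named there (not given in the sources used here). Values are the authors' deposited peak signal, used only to rank within a list, and their −log10 q value, used as a description. With no read counts, depth is unknown, and a check found the reproducible list to be the pooled list's 6522 strongest entries.

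Start sites of 13945 coding genes (19607 sites) came from Ensembl release 115 and sequence from RefSeq, where 99.8% of 30593 annotated start codons read ATG. Motifs were counted once per 201 bp window on either strand. Each summit was assigned its nearest qualifying start. A replicate held a summit when the summit lay inside one of its peaks. Differences within replicates were tested by an exact two-sided sign-flip permutation test with Benjamini-Hochberg adjustment over 15 measures, of which the initiator and TATA letters at the start and GC content were added after the motif shares were seen. Of 499 symbols given by name in 35 gene lists, 9 matched no gene.

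Genes named were the 10 selected genes of highest and 5 of lowest signal, up to 4 per list, 12 fixed by name, the 10 of best lowest replicate rank and the 10 strongest with a DRE; any others were picked after their values were seen. Sequences exclude chromosome arm 2R and stretches with over 30 untranslated exon bases. The promoters, lists and rules were chosen with earlier results of these data known. Alternatives covered the window, the start sites, the ranks, the q value, the motif window and each replicate left out. Functions were tested on simulated data. Python 3.11.15, pandas 2.3.3, numpy 2.4.6, scipy 1.17.1 and matplotlib 3.10.9 were used.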

Additional observations from a re-analysis of the deposited data

How the results depend on the processing

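The selection depends first on where it stops. With ranks up to 9783 it held 644 summits and 618 genes, and in the next equally long stretch the rule found 554 summits and 539 genes, of which 104 are among the 991. With a window of 100 bp, 603 of the 991 genes remained and 49.7% of summits lay upstream in place of 59.6%. The share of summits supported in every replicate, 0.56% by the strongest peaks, was 27.8% with peaks of the first 13044 ranks, 58.8% with peaks of any strength and 0.0934% with summits within 100 bp, and between 0.747% and 2.52% when 1 replicate was left out. Divergent partners were found at 1.12% within 250 bp and 16.8% within 1000 bp. The DRE share was 1.96% with 150 bp to each side. Initiator letters stood at the start of 21.4% of the genes read at 5′ ends, and of 27.6% without summits near a reproducible one, both chosen after seeing the data. The Motif 7 difference, -0.0419 points, was between -0.116 and 0.0296 with 1 replicate left out, above 0 without replicate 1, and the cause was not tested.

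The other 26 alternatives for summary values moved them by less than a factor of 1.5 for counts, or less than the replicate SD or counting interval for shares. Of those for single motifs, lists and differences, 116 did so and 54 did not, among motif shares and shares of gene lists. With 1 group, no pairing of samples between groups was possible. The differences within replicates are paired by construction.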
